A study of Mus musculus with 6 samples.

Results

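The glutathione S-transferases, UDP-glucuronosyltransferases and sulfotransferases of the mouse liver are described here in fasted and refed animals. The genes were taken by name, as every array row with a single symbol of the Gst classes a, m, p, t, z, o and k, of the Ugt1, Ugt2 and Ugt3 groups or of the Sult1 to Sult5 groups. The array held 47 such genes, and 46 of the 21531 genes tested belong to them after Gsta1 was set aside for a doubtful probe identity. They are 20 Gst, 12 Ugt and 14 Sult genes. Livers came from Fasted and from Refed wild-type mice of 12 to 14 weeks, 9 mice in each condition, without any other genetic change or agent in either group. Total RNA of 3 mice of the same condition was pooled for each array, which gave 3 Fasted and 3 Refed arrays of different mice. Variation among the mice of a pool cannot be seen. The limma p-values below rest on the spread between pools, which the moderated test draws for each gene toward that of all genes. For these arrays, the sources used here do not give the strain, the sex, the hour of sampling or how long the fast and the refeeding lasted.

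These enzymes carry out the second step of detoxification, in which a foreign or internal compound is joined to a polar group so that bile or urine can remove it. Glutathione S-transferases attach glutathione to electrophiles, UDP-glucuronosyltransferases of the endoplasmic reticulum attach glucuronic acid to bilirubin, steroids, bile acids and drugs, and cytosolic sulfotransferases transfer sulfate from the donor PAPS to phenols, steroids and amines. The liver expresses all 3 families, and several members are known targets of the xenobiotic receptors CAR (Nr1i3), PXR (Nr1i2) and AHR, of PPARα and of the stress regulator NRF2 (Nfe2l2).

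Most of these transcripts differed little between the fasted and the refed liver. Gstt2, a theta-class glutathione S-transferase, and Sult1c2, a phenol sulfotransferase, were higher in the fasted liver, and no member passed the test in the other direction. The call of Gstt2 held in 16 of 16 alternative settings, while that of Sult1c2 was lost in 8 of 16. In limma's moderated test, with Benjamini-Hochberg adjustment over the 21531 genes, 2 of the 46 members (4.35%) passed at an adjusted p under 0.05, against 3.02% of all genes tested. Both were among the genes higher in the fasted liver, where 1.4% of all genes passed, and 0 members were lower, where 1.62% of all genes passed. The Gst family had 1 call among 20 genes, the Ugt family 0 among 12 and the Sult family 1 among 14. At an unadjusted p under 0.05, 9 members (19.6%) passed, 4 higher and 5 lower in the fasted liver, against 14.1% of all genes, 6.38% higher and 7.75% lower. These 9 were 5 Gst, 2 Ugt and 2 Sult genes. Set against that background, the share of members is not a result about the members.

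The promoters of 5 of these genes are shown first, because the results return to them. The base pairs were read from RefSeq on GRCm38.p6, as the 250 bases before the annotated transcription start, and 41 of the 46 members had an entry. Sult1c2 is shown as a gene that passed the test. Ugt2b37, Ugt2b38 and Ugt2b5 are shown because their levels moved together between the Fasted pools, and Ugt2b36 as a neighbour in which the same pool did not stand apart. The capitals mark AGGTCA, the core hexamer of many nuclear receptor sites, and Sult1c2 has no capitals because its window does not contain that hexamer. All 5 lie on the minus strand and are written 5′ to 3′. Their positions are chr17:53845959-53846208 for Sult1c2, chr5:87254789-87255038 for Ugt2b37, chr5:87424204-87424453 for Ugt2b38, chr5:87140341-87140590 for Ugt2b5 and chr5:87092556-87092805 for Ugt2b36.
Sult1c2: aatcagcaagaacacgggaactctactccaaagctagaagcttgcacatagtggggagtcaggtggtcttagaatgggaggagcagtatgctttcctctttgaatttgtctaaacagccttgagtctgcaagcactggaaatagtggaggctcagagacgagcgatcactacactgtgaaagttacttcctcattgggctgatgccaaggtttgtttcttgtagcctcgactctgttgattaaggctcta
Ugt2b37: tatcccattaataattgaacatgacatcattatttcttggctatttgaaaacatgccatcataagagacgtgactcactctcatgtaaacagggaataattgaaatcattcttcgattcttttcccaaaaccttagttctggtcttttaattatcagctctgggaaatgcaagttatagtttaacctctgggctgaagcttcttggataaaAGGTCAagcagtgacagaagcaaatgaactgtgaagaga
Ugt2b38: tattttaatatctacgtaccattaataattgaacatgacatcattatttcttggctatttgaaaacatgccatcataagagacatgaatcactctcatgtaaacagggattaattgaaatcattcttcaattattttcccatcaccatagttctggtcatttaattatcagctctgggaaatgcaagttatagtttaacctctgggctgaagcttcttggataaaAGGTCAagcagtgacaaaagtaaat
Ugt2b5: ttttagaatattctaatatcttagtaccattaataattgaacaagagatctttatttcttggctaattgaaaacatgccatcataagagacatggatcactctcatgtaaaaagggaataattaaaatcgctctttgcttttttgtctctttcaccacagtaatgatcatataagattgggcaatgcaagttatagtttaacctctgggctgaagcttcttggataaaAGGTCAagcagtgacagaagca
Ugt2b36: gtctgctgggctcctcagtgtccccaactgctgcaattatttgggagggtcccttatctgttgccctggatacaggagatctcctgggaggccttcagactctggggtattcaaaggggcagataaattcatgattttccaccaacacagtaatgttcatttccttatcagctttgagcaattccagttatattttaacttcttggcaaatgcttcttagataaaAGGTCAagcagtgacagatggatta

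Levels below are RMA log2 values, the background-corrected and normalized signal of a gene's probes on a log2 scale, and a difference is the mean of the Fasted pools less that of the Refed pools, so that 1 is a 2-fold difference. Of the 46 members, 33 lay above the median of all genes on each of the 6 arrays (7.04 to 7.13), and 12 lay below it on each. The 12 comprised 9 Sult genes, 2 Gst genes and 1 Ugt gene. The differences of the members ran from -0.30 to 0.73, with a median of -0.0022, against -0.0093 over all genes. Fasted was higher for 22 members and lower for 24. The median size of the difference, regardless of sign, was 0.107 for members and 0.0857 for all genes, and the median SD between pools of one condition was 0.129 for members and 0.119 for all genes. No member reached a 2-fold difference, which 64 of all genes did. All 44 members that did not pass had a 95% confidence interval inside a 2-fold difference in either direction, the widest bounds being -0.742 and 0.549, and 35 of them had an interval inside 0.5 on the log2 scale. In 11 members (23.9%) the 3 Fasted and 3 Refed values did not overlap, 5 with Fasted higher and 6 with Fasted lower, against 18.8% of all genes, 8.16% with Fasted higher and 10.7% with Fasted lower.

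**Figure D1:**
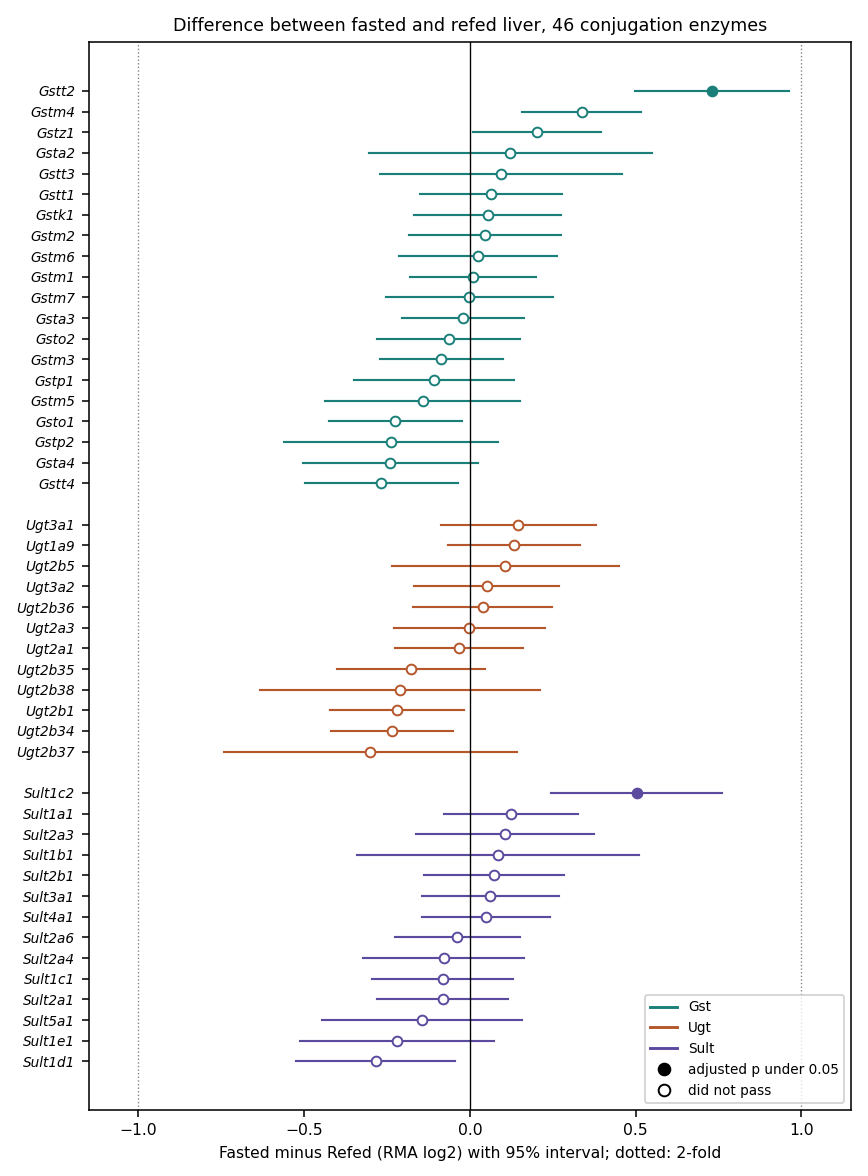
Difference between Fasted and Refed liver (x axis, fasted minus refed on the RMA log2 scale) for each of the 46 members, grouped as Gst, Ugt and Sult and ordered by size within each family. Points are fitted differences and lines their 95% confidence intervals. Filled points mark Gstt2 and Sult1c2, and the intervals of the other 44 members lie between -0.742 and 0.549.

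**Figure D2:**
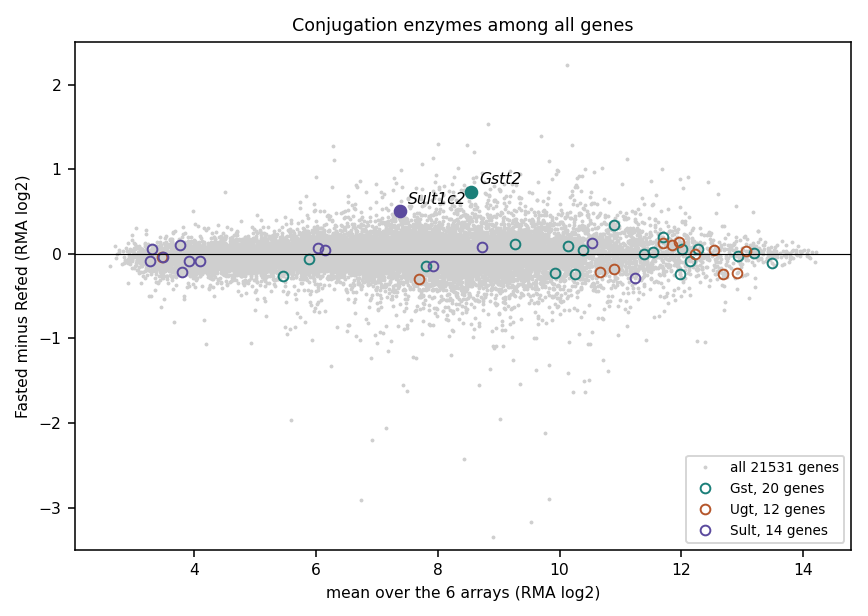
Fasted minus refed difference (y axis, RMA log2) against the mean over the 6 arrays (x axis, RMA log2) for all 21531 genes in grey and for the 20 Gst, 12 Ugt and 14 Sult members in colour. Filled circles are Gstt2 and Sult1c2, and the other members lie within the bulk of the grey points.

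Theta-class glutathione S-transferases, which act on small halogenated and epoxide compounds, contained the largest difference among the members. Gstt2 had 9.03, 8.85 and 8.87 in the Fasted pools, against 8.37, 8.03 and 8.15 in the Refed pools. All 3 Fasted pools lay above all 3 Refed pools, and the gap between the groups was wider than the spread within either. The means were 8.91 ± 0.101 in Fasted and 8.18 ± 0.17 in Refed livers (SD, n = 3 pools each), a difference of 0.73 (95% interval 0.50 to 0.96), or 1.66-fold, with a limma adjusted p of 0.00413. The call held in 16 of 16 alternative settings, with adjusted p from 0.00173 to 0.0339 and differences from 0.656 to 0.823. Gstt2 is measured by 31 probes of a type the array annotation marks as unique, at 75294595 to 75297179 on chromosome 10 in the NCBIM37 positions of that annotation.

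The other theta-class genes did not pass the test. Gstt1 had 12.10, 11.90 and 12.10 in Fasted pools, against 12.06, 12.00 and 11.85 in Refed pools, a difference of 0.06 (-0.15 to 0.28). Gstt3 differed by 0.09 (-0.27 to 0.46), and the pools of both genes overlapped. Gstt4 had 5.43, 5.18 and 5.38 in Fasted pools, against 5.43, 5.69 and 5.67 in Refed pools, so that the difference had the opposite sign, at -0.27 (-0.50 to -0.04, limma adjusted p = 0.261). Within each array, the change of Gstt2 exceeded that of Gstt1 by 0.668, that of Gstt3 by 0.637 and that of Gstt4 by 0.997 on the log2 scale. For each of these pairs the 3 Fasted and 3 Refed array values did not overlap, and the exact two-sided permutation p was 0.1, the smallest that 3 pools against 3 allow. The design cannot place such a pair below 0.05. These pairs were chosen after the values were seen. Gstt2 alone already separated the conditions, so the pairs are no separate test of it.

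Sult1c2 was the member of the Sult family that passed. Its values were 7.79, 7.54 and 7.55 in Fasted pools, against 7.33, 6.92 and 7.12 in Refed pools. The value of refed 2 lay below the median of all genes on that array, 7.11. The groups did not overlap, yet the lowest Fasted and the highest Refed pool lay closer to each other than the extremes of the Refed pools did. The means were 7.63 ± 0.14 in Fasted and 7.13 ± 0.202 in Refed livers (SD, n = 3 pools each), a difference of 0.50 (0.24 to 0.76), or 1.42-fold, with a limma adjusted p of 0.0463. The call was lost in 8 of 16 alternative settings, among them 5 of the 6 that leave out 1 pool, with adjusted p from 0.0274 to 0.198 and differences from 0.403 to 0.605. The pools whose removal ended it were fasted 1 (0.198), fasted 2 (0.0857), fasted 3 (0.0679), refed 2 (0.109) and refed 3 (0.132). Sult1c2 stands on 25 probes marked as unique, at 53968962 to 53985283 on chromosome 17 (NCBIM37).

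Gstm4, a mu-class glutathione S-transferase, missed the threshold narrowly. It had 11.07, 11.10 and 11.03 in Fasted pools, against 10.76, 10.70 and 10.73 in Refed pools. Its pools were the most alike within each group of the 3 genes with the smallest p-values, with an SD of 0.0337 in Fasted and 0.0283 in Refed livers. The moderated test drew this spread up toward that of all genes, so its interval is wider than these SDs alone would give. The difference was 0.34 (0.16 to 0.52), or 1.26-fold, with a limma adjusted p of 0.0527, and it passed in 5 of 16 alternative settings with adjusted p from 0.0234 to 0.169. The remaining mu-class genes, Gstm1, Gstm2, Gstm3, Gstm5, Gstm6 and Gstm7, had differences from -0.143 to 0.0458. Gstm1, a main hepatic glutathione S-transferase of the mouse, had 13.19, 13.10 and 13.27 in Fasted pools, against 13.15, 13.23 and 13.17 in Refed pools, a difference of 0.01 (-0.18 to 0.20). Within each array, the change of Gstm4 exceeded that of each of these 6 genes by 0.291 to 0.479, and the array values did not overlap between conditions for 5 of the 6 pairs (exact two-sided permutation p = 0.1 each, the smallest possible). They overlapped for Gstm2 (exact permutation p = 0.2). These pairs, too, were chosen after the values were seen. Gstm4 alone already separated the conditions, so the pairs are no separate test of it. Gstm3 is uncertain, since its brighter row lies on chromosome 10 and is marked as cross-hybridizing (-0.086), while the row on chromosome 3, next to the other mu genes, is marked as unique and had a difference of -0.186.

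Among the other Gst genes, Gstz1, Gsto1 and Gsta4 had differences of 0.20 to 0.24 in size that did not pass. Gstz1, the maleylacetoacetate isomerase of tyrosine breakdown, had 11.81, 11.87 and 11.73 in Fasted pools, against 11.68, 11.60 and 11.52 in Refed pools (0.20, interval 0.01 to 0.40, limma adjusted p = 0.317). Gsto1, an omega-class enzyme that reduces dehydroascorbate, had 9.93, 9.72 and 9.79 in Fasted pools, against 10.04, 10.10 and 9.97 in Refed pools (-0.22, interval -0.43 to -0.02, limma adjusted p = 0.276). Neither set of pools overlapped. Gsta4, which conjugates products of lipid peroxidation, had 10.26, 10.01 and 10.12 in Fasted pools, against 10.45, 10.54 and 10.11 in Refed pools, where refed 3 lay among the Fasted values (-0.24, interval -0.51 to 0.02). Gsta3, an alpha-class enzyme, had 12.97, 12.89 and 12.88 in Fasted pools, against 13.00, 12.90 and 12.91 in Refed pools (-0.02, interval -0.21 to 0.16).

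The pi-class genes and Gsta2 had their highest or lowest value in the pool refed 3. Gstp2, Gsta2 and Cyp2b10 are described because of that pool and were chosen after their values were seen. Gstp1 had 13.41, 13.48 and 13.41 in Fasted pools, against 13.34, 13.53 and 13.76 in Refed pools (-0.11, interval -0.35 to 0.13, and -0.0009 without refed 3). Gstp2, measured on a row marked as cross-hybridizing, had 11.77, 12.05 and 11.75 in Fasted pools, against 11.82, 12.05 and 12.42 in Refed pools. The Refed pools of both pi-class genes were spread about evenly. In Gstp1 and Gstp2, refed 1 lay 0.204 and 0.28 below the Refed mean, and refed 3 lay 0.215 and 0.329 above it. Gsta2, also on a cross-hybridizing row, had 9.47, 9.23 and 9.29 in Fasted pools, against 9.61, 9.35 and 8.66 in Refed pools. Refed 3 was the highest of all 6 arrays for both pi-class genes and the lowest for Gsta2. An extreme value on that array was not particular to them. It was also the lowest for other members, among them Gstm2 (10.18), Gstm6 (11.32), Gstt3 (9.83) and Sult1b1 (8.38). For Gstm5 (8.12) and Ugt2b35 (11.16), among others, it was the highest. On that array Cyp2b10, the classic CAR target among the cytochromes P450, read 9.12, against 6.99 and 6.47 in the other Refed pools and 6.25, 6.32 and 6.33 in the Fasted pools. The part of that pool's state in the values of the Gst genes was not tested.

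**Figure D3:**
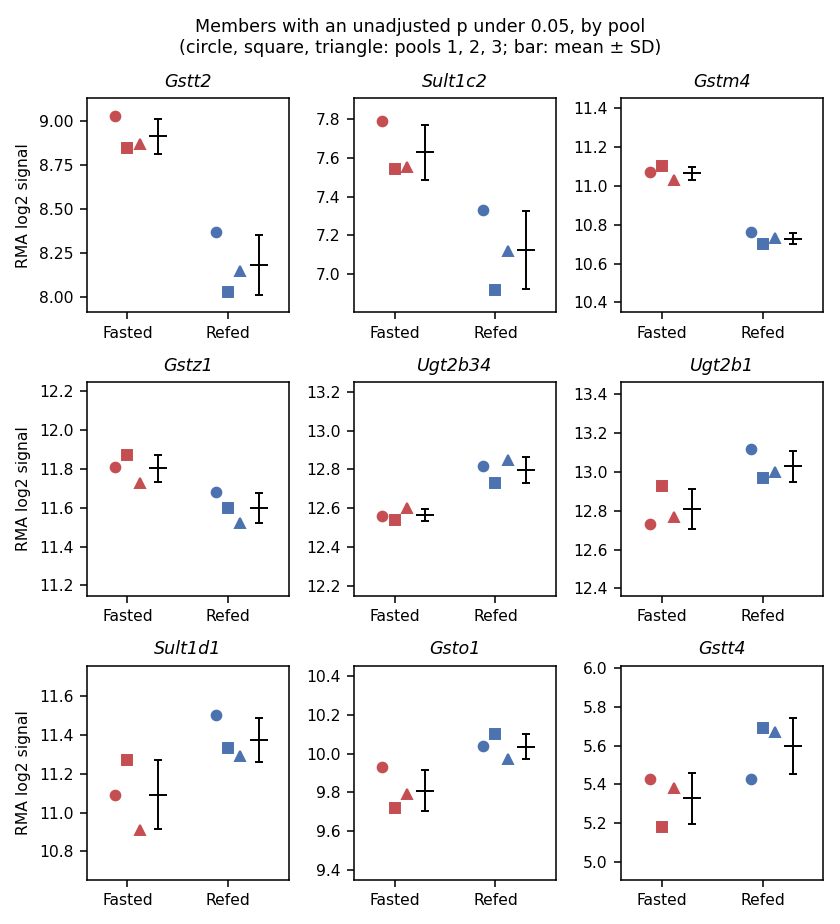
RMA log2 signal (y axis) of the 9 members with an unadjusted p under 0.05, with Fasted pools on the left and Refed pools on the right of each panel. Circle, square and triangle are pools 1, 2 and 3 of a condition, and the bar is the mean ± SD of 3 pools. The gap between the conditions is widest in Gstt2 (0.73). Over both conditions the points lie closest together in Gstm4, though the Fasted points alone are slightly closer in Ugt2b34 (SD 0.0304, against 0.0337). The y axes differ in range and do not start at 0.

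The Ugt family had no call in limma's test, with 2 of 12 genes at an unadjusted p under 0.05, both of the Ugt2b group and both lower in the fasted liver. The 7 Ugt2b genes, which lie together on chromosome 5, had a median difference of -0.21, 5 of them negative and 2 positive, against -0.0093 over all genes. Ugt2b34 had 12.56, 12.54 and 12.60 in Fasted pools, against 12.82, 12.73 and 12.85 in Refed pools. The groups did not overlap, and the difference was -0.24 (-0.42 to -0.05, limma adjusted p = 0.202). Ugt2b1, which glucuronidates steroids and drugs, had 12.73, 12.93 and 12.77 in Fasted pools, against 13.12, 12.97 and 13.00 in Refed pools, a difference of -0.22 (-0.42 to -0.02, limma adjusted p = 0.295). Ugt2b36 had 13.03, 13.15 and 13.05 in Fasted pools, against 13.14, 12.89 and 13.07 in Refed pools, a difference of 0.04 (-0.17 to 0.25). Ugt2b35 differed by -0.18 (-0.40 to 0.04).

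Ugt2b37, Ugt2b38 and Ugt2b5 varied more between the Fasted pools than between the conditions, and they did so together. Apart from Ugt2b37, which had the largest negative difference of the family, they were chosen after their values were seen. Ugt2b37 had 7.34, 8.12 and 7.18 in Fasted pools, against 7.88, 7.68 and 7.98 in Refed pools (-0.30, interval -0.74 to 0.14). Ugt2b38 had 10.27, 11.09 and 10.30 in Fasted pools, against 10.81, 10.57 and 10.91 in Refed pools (-0.21, interval -0.63 to 0.21). Ugt2b5 had 11.74, 12.29 and 11.65 in Fasted pools, against 11.90, 11.61 and 11.85 in Refed pools (0.11, interval -0.24 to 0.45). In all 3 genes fasted 2 was the highest of the 6 arrays, while the other Fasted pools were below every Refed pool in Ugt2b37 and Ugt2b38. The same pool was also the highest, though narrowly, in Ugt2b36 (13.15, against 13.14 in refed 1). That held too for Ugt2a3 (12.37, against 12.32) and Ugt3a1 (12.12, against 12.09). Fasted 2 stood above its group mean by 0.573 in Ugt2b37, 0.537 in Ugt2b38 and 0.396 in Ugt2b5. The same pool stood only 0.073 above it in Ugt2b36, 0.077 in Ugt2b35 and 0.118 in Ugt2b1, and 0.028 below it in Ugt2b34. In Ugt2a3, which lies between Ugt2b37 and Ugt2b38 on chromosome 5, it stood 0.156 above.

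Leaving out fasted 2 gave differences of -0.59 for Ugt2b37, -0.48 for Ugt2b38 and -0.09 for Ugt2b5. Ugt2b37 then passed in limma's test with an adjusted p of 0.0348, and over its 16 alternatives the adjusted p ran from 0.0348 to 0.856. Ugt2b38 did not pass (adjusted p = 0.0874, and 0.0874 to 0.955 over all fits with pools left out), nor did Ugt2b5 (adjusted p = 0.927, and 0.526 to 0.988). The rows of these genes hold 18, 14 and 12 probes and are marked as unique, but the genes are close relatives, and whether probes of 1 gene also caught transcripts of another was not tested.

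**Figure D4:**
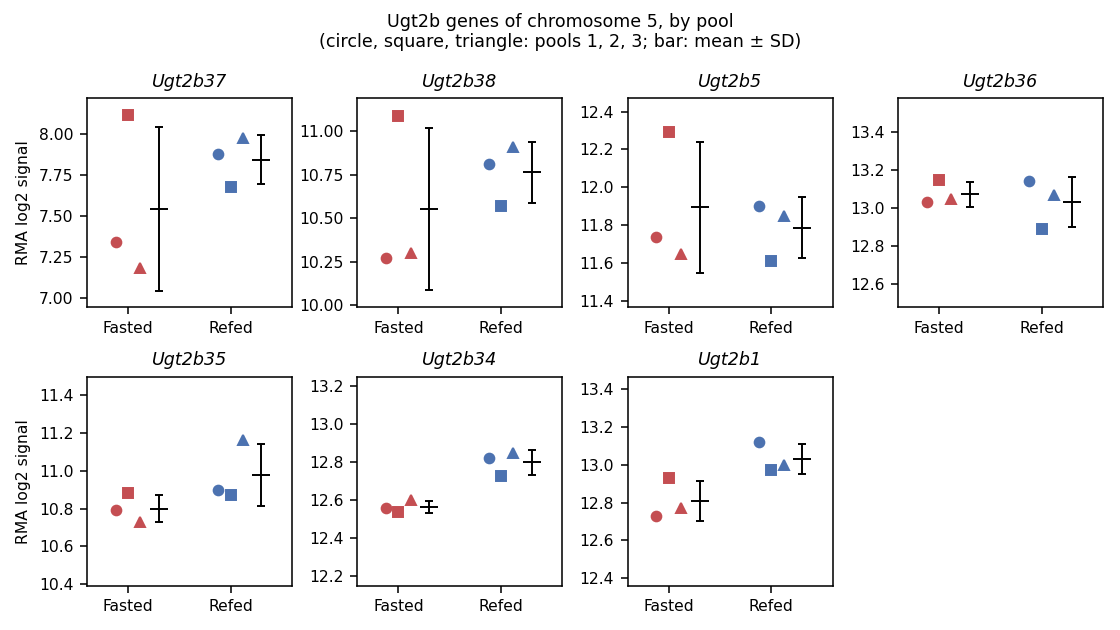
RMA log2 signal (y axis) of the 7 Ugt2b genes, with Fasted pools on the left and Refed pools on the right of each panel. Circle, square and triangle are pools 1, 2 and 3 of a condition, and the bar is the mean ± SD of 3 pools. The square of fasted 2 stands above the other arrays in Ugt2b37, Ugt2b38 and Ugt2b5, by 0.396 to 0.573 over its group mean. It is narrowly the highest in Ugt2b36 too, at 0.073 over its group mean. The groups separate in Ugt2b34 and Ugt2b1. The y axes differ in range and do not start at 0.

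The printed promoters of these 3 genes are also the most alike in the group. In global alignments of the 250 bases, Ugt2b37 and Ugt2b38 were identical in 225 of 264 aligned columns (85.2%), Ugt2b38 and Ugt2b5 in 212 of 260 (81.5%) and Ugt2b37 and Ugt2b5 in 200 of 274 (73.0%). The other 18 pairs of Ugt2b promoters reached at most 60.4%. AGGTCA, searched on both strands, ended 34 bases before the start in Ugt2b37, 20 in Ugt2b38, 17 in Ugt2b5 and 20 in Ugt2b36. The window of Ugt2b35, in which fasted 2 stood 0.077 above its group mean, also contains the hexamer. Ugt2b36, in which fasted 2 did not stand apart, carries the hexamer at a like place. Whether the promoters have a part in the shared variation of the 3 genes was not tested. The hexamer was found in 9 of 51 member promoters (17.6%), some genes having several, and in 14.0% of all 32851 mouse promoters of the same length.

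Other motifs were searched on both strands of the same windows. The D-box, TTATGTAA or TTACGTAA, which binds DBP and TEF, was found in 1 member promoter (1.96%), that of Ugt2b1, and in 0.931% of all promoters. GCGTG, the core bound by AHR, was found in 8 member promoters (15.7%) and in 28.2% of all promoters. TGACNNNGC, the core of the antioxidant response element bound by NRF2, was found in 3 member promoters (5.88%), those of Gsta3, Gstm5 and Gstm7, and in 10.2% of all promoters. The E-box CACGTG was found in 0 member promoters and in 6.02% of all promoters. A match is a description of letters and not a site, and regions outside the 250 bases were not searched.

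The remaining Ugt genes did not pass either. Ugt1a9 stands for the Ugt1 locus as a whole, since its row holds 70 probes from 89921796 to 90116577 on chromosome 1 (NCBIM37), a stretch that includes the first exons of several Ugt1a enzymes, and it differed by 0.13 (-0.07 to 0.33). Ugt3a1 had the largest positive difference of the family, 0.15 (-0.09 to 0.38) on a row marked as cross-hybridizing, and 0.308 on its second row, which is marked as unique. Ugt3a2 differed by 0.05 (-0.17 to 0.27) and Ugt2a3 by -0.00 (-0.23 to 0.23). Ugt2a1, known from the olfactory epithelium, was below the median of every array and differed by -0.03 (-0.23 to 0.16).

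In the Sult family, Sult1d1 had the largest negative difference. Sult1d1, which sulfates catecholamines in the mouse, had 11.09, 11.27 and 10.91 in Fasted pools, against 11.50, 11.33 and 11.29 in Refed pools. Its highest Fasted pool lay just under its lowest Refed pool, and the difference of -0.28 (-0.52 to -0.04) did not pass (limma adjusted p = 0.244). Sult1a1, the main phenol sulfotransferase, had 10.65, 10.58 and 10.58 in Fasted pools, against 10.55, 10.55 and 10.33 in Refed pools (0.12, interval -0.08 to 0.33). Sult1b1, which sulfates thyroid hormones, had 8.80, 8.95 and 8.57 in Fasted pools, against 9.22, 8.47 and 8.38 in Refed pools (0.08, interval -0.34 to 0.51). Refed 1 exceeded every other array in Sult1b1, and without it the difference was 0.35. Sult5a1 differed by -0.14 (-0.45 to 0.16).

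The steroid and bile acid sulfotransferases were dim. Sult2a1, Sult2a3, Sult2a4 and Sult2a6, which sulfate hydroxysteroids and bile acids, and Sult3a1, Sult1e1 and Sult1c1 all lay between 3.21 and 4.26 on the 6 arrays, below the median of all genes on each. Sult1e1, the estrogen sulfotransferase, had 3.69, 3.77 and 3.64 in Fasted pools, against 3.79, 4.26 and 3.71 in Refed pools. The deposited values carry no call of signal above background. Several Sult2a and Sult3a genes are known to be female-biased in mouse liver. Xist lay between 4.51 and 4.76 on all 6 arrays, and the Y-linked genes Ddx3y, Eif2s3y, Kdm5d and Uty lay between 7.46 and 9.75, with 0 of these 5 sex-linked genes called by limma and 0 at an unadjusted p under 0.05.

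The genes that supply the cofactors were set beside the transferases. In glutathione supply and turnover 0 of 11 genes passed in either direction (2 at an unadjusted p under 0.05 in limma), with differences from -0.263 to 0.373. Gclc and Gclm, the subunits of the rate-limiting enzyme of glutathione synthesis, differed by -0.02 (-0.25 to 0.21) and -0.00 (-0.19 to 0.18). In UDP-glucuronic acid supply and glucuronide cleavage 0 of 6 passed (1 at an unadjusted p under 0.05). Ugdh, which makes UDP-glucuronic acid, had 11.51, 11.48 and 11.43 in Fasted pools, against 11.43, 11.52 and 11.55 in Refed pools, and Ugp2, which makes UDP-glucose, differed by 0.28 (-0.04 to 0.59). In PAPS supply and use 0 of 6 passed (1 at an unadjusted p under 0.05), with Papss2, the main PAPS synthase of liver, at 0.09 (-0.10 to 0.27). Relatives outside the naming rule, such as the microsomal glutathione transferases, had 0 of 8 calls (1 at an unadjusted p under 0.05), other conjugating transferases for methyl, acetyl and amino acid groups 0 of 12 (4), and efflux transporters of conjugates 0 of 7 (4). Over all genes, 14.1% had an unadjusted p under 0.05 in limma. The transporters at that level were Abcc2 (0.26), Abcc3 (0.35) and Abcc6 (0.25), higher in Fasted, and Abcb1b (-0.37), lower in Fasted.

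The regulators of the pathway were read in the same way. Of 17 receptors and transcription factors, 4 passed and all 4 were higher in the fasted liver, against 3.02% of all genes called and 1.4% called higher. At an unadjusted p under 0.05 there were 9 of the 17, against 14.1% of all genes. This list, like the other companion lists, was chosen with earlier results of these data known. The shares therefore describe the lists and do not test them. Nr1i3, which encodes CAR, had 12.40, 12.09 and 12.29 in Fasted pools, against 11.82, 11.70 and 11.58 in Refed pools (0.56, interval 0.33 to 0.79, limma adjusted p = 0.0164). Ppara, the fatty acid receptor of the fasting response, had 11.87, 11.78 and 11.78 in Fasted pools, against 11.32, 11.18 and 11.21 in Refed pools (0.57, interval 0.38 to 0.76, limma adjusted p = 0.00499). Dbp, a clock-controlled activator of detoxification genes, had 11.09, 10.56 and 11.11 in Fasted pools, against 9.85, 10.06 and 9.84 in Refed pools (1.00, interval 0.69 to 1.32, limma adjusted p = 0.00386). All 3 genes separated the conditions without overlap. Tef, a relative of Dbp, differed by 0.40 (0.21 to 0.58, limma adjusted p = 0.0333) and lost its call in each fit that left out 1 pool (adjusted p 0.0588 to 0.148, and 0.0159 to 0.148 over 16 alternatives) and with the replicate number as a block (0.104). Nr1i3 lost its call without fasted 1 (0.0925) or refed 3 (0.0732), within a range of 0.00437 to 0.0983 over its alternatives. Whether the conditions also differed in the hour of sampling is not known for these arrays. The part of that hour in the values of Dbp and Tef was not tested.

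The other receptors of the pathway did not pass. Nr1i2, which encodes PXR, differed by 0.29 (0.05 to 0.53, limma adjusted p = 0.241), Ahr by 0.25 (0.07 to 0.43, adjusted p = 0.162) and Nfe2l2 by 0.12 (-0.09 to 0.34). Among 5 target P450s of these receptors, Cyp4a14, a PPARα target, was the 1 that passed (3 at an unadjusted p under 0.05, against 14.1% of all genes). Cyp4a14 had 12.62, 12.48 and 12.57 in Fasted pools, against 12.08, 11.50 and 11.36 in Refed pools (0.91, interval 0.56 to 1.25, limma adjusted p = 0.0111). It lost its call without fasted 1 (0.0697, within a range of 0.000697 to 0.103). Of 8 NRF2 target enzymes, 2 passed and both were lower in the fasted liver, where 1.62% of all genes passed. The same number had an unadjusted p under 0.05, against 14.1% of all genes. Osgin1, an oxidative stress-induced growth inhibitor, had 10.36, 10.14 and 10.26 in Fasted pools, against 11.08, 10.76 and 11.21 in Refed pools (-0.76, interval -1.03 to -0.50, limma adjusted p = 0.00627). Hmox1, heme oxygenase, had 8.01, 8.08 and 8.06 in Fasted pools, against 8.42, 8.80 and 8.70 in Refed pools (-0.59, interval -0.82 to -0.36, limma adjusted p = 0.0127), and lost its call without fasted 1 (0.0727) or refed 3 (0.0539), within a range of 0.00679 to 0.0734. Nqo1, the quinone reductase often read as an NRF2 marker, differed by 0.16 (-0.09 to 0.41), and the 6 members of that list that did not pass had differences from -0.1063 to 0.1693. The Gst genes usually counted as NRF2 targets, among them Gstm1 and Gsta3, had the differences given above.

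**Figure D5:**
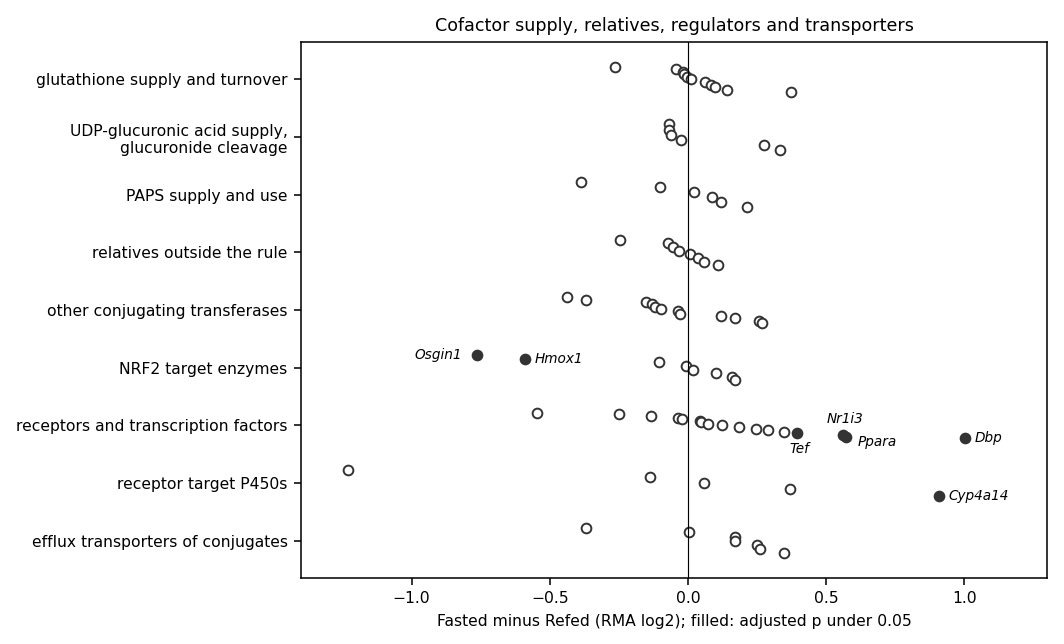
Fasted minus refed difference (x axis, RMA log2) of single genes in 9 companion lists (y axis), 80 genes in all. Filled points are the 7 genes with an adjusted p under 0.05, 5 higher and 2 lower in Fasted livers, and open points did not pass. The lists of cofactor supply, relatives, other transferases and transporters hold no filled point.

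Markers of other cell types were read on the same arrays. Hepatocyte markers had 0 of 6 calls (0 at an unadjusted p under 0.05 in limma), and their summed level was 16.16 to 16.18 in Fasted and 16.13 to 16.17 in Refed pools. Among 5 Kupffer cell markers, Vsig4 was lower in the fasted liver (-0.71, limma adjusted p = 0.00904). Timd4 (-0.26), Cd5l (-0.18), Clec4f (-0.10) and Marco (-0.04) had negative differences that did not pass. The summed level of the list was 10.92 to 10.98 in Fasted and 11.16 to 11.49 in Refed pools. Vsig4, the brightest of the list, weighs most in that sum. Among 5 cholangiocyte markers, Sox9 was lower (-0.53, limma adjusted p = 0.0141), with summed levels of 9.75 to 9.81 in Fasted and 9.92 to 10.01 in Refed pools. Spp1 had a positive difference (0.27), and Krt19 (-0.29), Krt7 (-0.08) and Epcam (-0.01) had negative ones. None of these passed. Among 5 periportal markers Cdh1 was lower (-0.59, limma adjusted p = 0.0129), while the median difference of the list was 0.2696, and Sds (0.48), Gls2 (0.33) and Hal (0.27) had positive differences that did not pass (limma adjusted p = 0.275, 0.258 and 0.284). Vsig4 lost its call without fasted 1, Sox9 without fasted 1, fasted 2 or refed 3, and Cdh1 without fasted 2 or refed 3. Pericentral, stellate, endothelial, lymphocyte, erythroid and pancreatic acinar markers had no call among 28 measured genes (4 at an unadjusted p under 0.05, against 14.1% of all genes). In whole liver, fewer cells of a type and less RNA per cell cannot be told apart, and the part of cell composition in Hmox1, which Kupffer cells also express, was not tested.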

How the data were processed

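Liver RNA was measured on Affymetrix Mouse Gene 1.0 ST arrays in 3 Fasted and 3 Refed pools. The authors deposited log2 values, background-corrected, normalized and summarised by RMA in Affymetrix Expression Console 1.3.1.187 per the submitters' processing notes, for 34760 transcript clusters. Arrays give no read depth, so their number limits the precision. The deposited annotated table held symbols, NCBIM37 positions, probe types and a comparison made by the authors (log2 fold change, p-value), which was not used. Another 12 columns of per-array values were not tied to labelled samples and were not used.

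Of 27619 clusters in both tables, 24446 had 1 symbol. Clusters whose refed mean differed by over 1 log2 from the livWTR mean deposited by the authors (558, among them Gsta1 and a second row of Gstp2) were left out, and the row with the highest mean stood for a gene, which left 21531 genes. The name livWTR is not spelled out in the deposit, and the filter takes it to mean refed wild-type liver. Of the members, 41 stand on unique rows and 5 on cross-hybridizing ones (Gsta2, Gstm3, Gstp2, Sult2a4, Ugt3a1). limma 3.58.1 in R 4.3.3 (lmFit, eBayes, condition as the only term) gave differences, 95% intervals and Benjamini-Hochberg adjusted p-values over all 21531 genes. The fit was tested on simulated data. Genes were named if they had an adjusted or unadjusted p under 0.05, were among the 3 brightest or had an extreme difference in their family, were companion genes that passed, or belonged to 10 companion genes given whatever their value. Other members and markers with values in the text were chosen after those values were seen. Companion genes and markers came from fixed lists, and list levels are the log2 of summed linear values. The members and lists were chosen with earlier results of these data known. Alternatives were the row choice, scaling, variance model, replicate block and left-out pools.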

Additional observations from a re-analysis of the deposited data

How the results depend on the processing

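The number of pools limits every value, since 3 pools of 3 mice stand for each condition. Over all genes, 651 passed, and the count was 266 to 616 with 1 pool left out, 266 without fasted 1, 392 without fasted 2 and 336 without refed 3, and 413 without both fasted 3 and refed 2. That pair was left out together as an alternative chosen after seeing the data, because the second principal component set them apart (-18.6 and -14.3). The number of members higher in Fasted livers was 2, against 1 to 2 with 1 pool left out, 1 under median centring of the arrays and 1 without both pools. The number lower was 0, against 0 to 1 with 1 pool left out, the 1 being Ugt2b37 without fasted 2. The median difference of the Sult family was 0.0841, against 0.0046, when only genes above the median level were tested, which leaves few Sult genes. Signs turned where differences were near 0: Gsta3 was 0.0052 under quantile normalization and -0.0503 to 0.0107 with 1 pool left out, Gstm1 was -0.0017 with array weights, -0.0098 without both pools and -0.0325 to 0.052 with 1 pool left out, Sult1b1 was -0.072 to 0.35 and Ugt2b36 -0.035 to 0.093 with 1 pool left out, and Ugt2b36 was -0.0219 without both pools. The cause was not tested. Differences that did not pass but moved by over 1.5 times with 1 pool left out include Gstp1 (-0.2104 to -0.0009), Sult1a1 (0.0535 to 0.1609) and Ugt3a1 (0.0619 to 0.2429). Sult1c2 lost its call under quantile normalization (adjusted p = 0.057) and median centring (adjusted p = 0.0704), and Gstm4 gained one in 5 settings. With the replicate number as a block, 457 genes passed and the same 2 members were called, while Tef lost its call. The deviations of same-numbered pools correlated at 0.0691, -0.229 and -0.335, and no pool correlated best with its own number. With 3 pools in each condition, these correlations cannot exclude that the numbers pair the pools. Gsta1, tested without the identity filter, differed by 0.163 (-0.634 to 0.959), with values of 7.12, 7.12 and 5.88 in Fasted and 7.31, 6.37 and 5.96 in Refed pools.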
